A study of Homo sapiens with 82 samples.

Results

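Of the 9218 LXRB sites found after 48 h of GW3965, 2517 (27.3%) were late LXRB sites without JunD. A site was the merged span of a replicate 1 and a replicate 2 peak that shared at least 1 bp. A late site overlapped none of the 3881 LXRB sites found at 2 h by the same definition, and a site without JunD overlapped no peak of either JunD replicate, which held 11069 and 13027 peaks. The other LXRB 48 h sites fell into 3310 late sites with JunD, 961 sites of both times without JunD and 2430 sites of both times with JunD. LXRB and JunD peaks therefore chose the members, and their LXRB scores and JunD distances are given as a description.

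All libraries came from HT29, an established human colorectal cancer cell line, and each ChIP-seq group had 2 replicates. LXRB was assayed after 2 and 48 h of GW3965, an agonist of both LXR forms. LXRA was assayed at the same times and with the same drug through a FLAG tag on a transgene in G418-selected HT29 cells, so its sites are those of an introduced protein. PPARG was assayed after 2 and 48 h of rosiglitazone, its agonist, and H3K27ac and RNA polymerase II (RNAP2) in cells given the DMSO vehicle, and in cells given either drug for 24 h or 48 h. JunD was assayed in DMSO alone, so JunD binding under either drug was not measured. Both drugs were used at 10 μM, and the hour at which DMSO-treated cells were taken for ChIP-seq is not labeled. The labels do not say that the replicates came from separate cultures, so the spread between them may be technical.

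LXRA and LXRB are nuclear receptors activated by oxysterols. They bind DNA as heterodimers with RXR and control genes of cholesterol efflux and fatty acid synthesis. PPARG, a receptor for fatty acids, also pairs with RXR. JunD is a subunit of AP1, a leucine zipper factor found at many enhancers. Acetylation of lysine 27 of histone H3 marks active enhancers and promoters, and RNAP2 is the enzyme that transcribes them.

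The 34 peak lists used here held 4555 to 35934 peaks. A peak's score is -10 times log10 of its MACS p-value, and the lowest score in any list was 100. Scores of exactly 3100 recurred in 9733 of 813345 peaks, so the strongest peaks could not be ranked. Read depth was not given in these lists, so a missing peak means no peak at this threshold, not absence of binding. In 16 of 17 groups both replicates were called against one input library, and PPARG at 2 h was the exception. H3K27ac and RNAP2 shared their input library within each of the 5 conditions. In RNA-seq of the same line, 24 libraries under DMSO, GW3965 or rosiglitazone held NR1H2, which encodes LXRB, at 46.0 to 70.0 CPM (counts scaled to the library total) and JUND at 89.8 to 351 CPM. NR1H3, which encodes LXRA, lay between 70.8 and 256 CPM and PPARG between 29.2 and 86.5 CPM. These levels differed by condition and were not tested. At 48 h, mean JUND was 162 CPM with GW3965 and 271 CPM in DMSO, and at 24 h 124 and 112 CPM. At 48 h the means with GW3965 and in DMSO were 239 and 78.4 CPM for NR1H3. They were 38.4 and 83.5 CPM for PPARG and 53.3 and 65.5 CPM for NR1H2. The epithelial markers EPCAM, CDH1 and KRT20 were at 240.4 CPM or above in every one of these libraries. VIL1 and CDX2, also markers of colon epithelium, lay at 46.5 to 258 CPM and at 6.01 to 19.8 CPM. PTPRC, a leukocyte marker, reached at most 0.112 CPM, and COL1A1, a fibroblast collagen, at most 8.54 CPM. The ranges of CDX2 and COL1A1 overlapped.

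LXRB peaks at the late sites without JunD were weak. Their median score was 145 in replicate 1 and 172 in replicate 2, and the median of the lower score of each site was 132, with quartiles of 112 and 165. The corresponding median of lower scores was 156 at late sites with JunD and 302 at sites of both times without JunD. Within their own library, the median member peak stood at the 36.6th percentile of all LXRB 48 h peaks in replicate 1 and at the 50.4th in replicate 2. When all LXRB 48 h sites were divided into tertiles by the lower score, 1444 members (57.4%) were in the lowest tertile, 891 (35.4%) in the middle tertile and 182 (7.23%) in the highest. The bounds of these tertiles were 139.6 and 235. The membership depended on weak peaks in either replicate. A minimum score of 200 in both replicates left 345 members, and without LXRB 48 h replicate 1, so that any replicate 2 peak made a site, there were 6423.

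**Figure D1:**
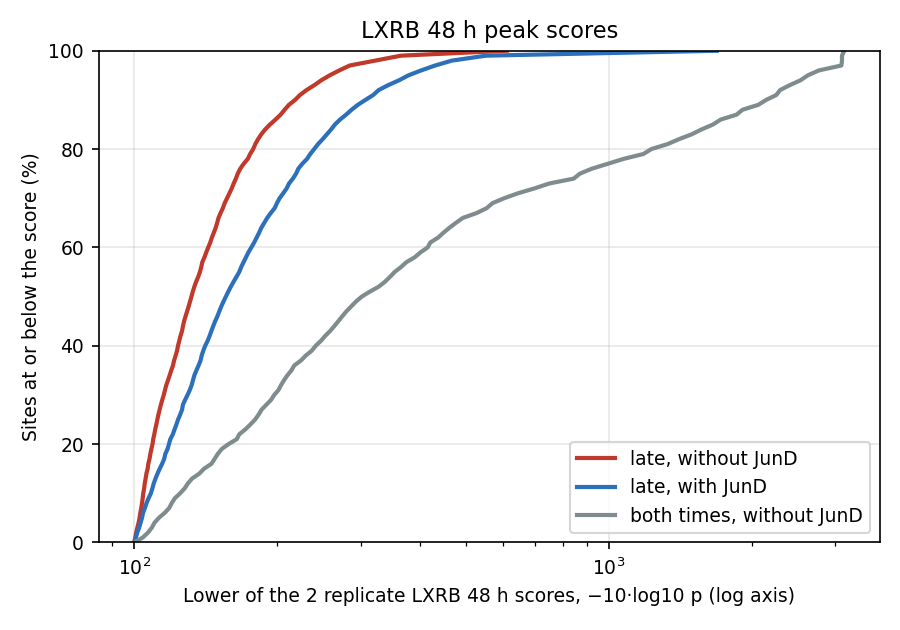
Percent of sites (vertical axis) at or below each lower LXRB 48 h score (horizontal log axis, -10 times log10 p) for late sites without JunD, late sites with JunD and sites of both times without JunD. The curve of the late sites without JunD lies farthest left, with a median of 132 against 156 and 302.

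The late sites without JunD spanned 425 to 6374 bp, with a median of 957 bp and quartiles of 778 and 1296 bp. Late sites with JunD had nearly the same median span of 948 bp, and sites of both times without JunD one of 1128 bp. The single peaks behind the member sites were 844 bp wide in replicate 1 and 876 bp in replicate 2 at the median. The members were spread over the genome, with 232 on chromosome 1 (9.22%) and 137 on chromosome 19 (5.44%). Chromosome 19 held 3.84% of late sites with JunD and 6.76% of sites of both times without JunD. Another member lay within 10000 bp of 305 members (12.1%), and the median distance to the nearest other member was 154754 bp.

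Late was defined by the lack of a reproducible site at 2 h, and 685 members (27.2%) nevertheless had an LXRB peak in 1 of the 2 replicates at 2 h. For 593 of them it was in replicate 1, the larger list with 7583 peaks, and for 92 in replicate 2, with 4555. The remaining 1832 members (72.8%) had no LXRB peak at 2 h. The members with 1 such peak had a median lower LXRB score of 147 and a median span of 1052 bp, against 128 and 926 bp for those with none. Marks were also more frequent at them. In DMSO, H3K27ac peaks overlapped 72.6% and 80.1% of them in replicates 1 and 2, and 62.4% and 73.0% of the members with no 2 h peak. After 48 h of GW3965, RNAP2 peaks overlapped 88.2% and 86.0% of them, against 71.3% and 68.3%. In DMSO the RNAP2 values were 90.7% and 92.1% against 82.5% and 83.2%.

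The nearest JunD peak was 26401 bp away at the median member. It was within 500 bp of 68 members (2.70%), within 10000 bp of 743 (29.5%) and within 100000 bp of 1999 (79.4%). The members just inside the JunD rule were chr4:120649902-120650980, which touched a JunD peak without sharing a base, chr22:39704526-39705794 at 28 bp and chr2:54758385-54759271 at 33 bp, with lower LXRB scores of 184, 111 and 128. Just outside it were the late sites chr18:68000772-68001549, chr1:207223927-207225255 and chr3:150127319-150128328, which shared 2, 5 and 16 bp with JunD peaks and had lower LXRB scores of 138, 131 and 116. All positions refer to hg19. The scores on either side of the rule lay in one range.

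H3K27ac at the members varied with distance to JunD. In DMSO the mean of the 2 libraries was 85.9% of the 135 members within 1000 bp of a JunD peak and 75.1% of the 608 members from there to 10000 bp. It was 68.6% of the 1256 members from 10000 to 100000 bp and 63.7% of the 518 farther away. The same order was present after 48 h of rosiglitazone, at 90.7%, 80.4%, 72.5% and 66.1%. RNAP2 in DMSO covered a narrower range, from 89.6% in the nearest class to 82.6% in the farthest. The median lower LXRB score hardly differed between these classes, at 131 to 135. Distance to JunD therefore ordered the members by acetylation but not by LXRB score, with no test made because JunD chose the members.

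LXRA occupied most late LXRB sites without JunD. At 2 h of GW3965, LXRA peaks overlapped 80.2% of them in replicate 1 and 58.5% in replicate 2. At 48 h they overlapped 71.8% and 87.9%. Over all 9218 LXRB 48 h sites, the background at 2 h was 85.4% and 71.6%, and the background at 48 h was 81.0% and 90.9%, so the members were below the background in each of the 4 libraries. The replicates differed by more than the times did. The mean at 48 h was 79.8% and at 2 h 69.3%, a difference of 10.5 points (exact two-sided permutation test of 2 against 2 libraries, p = 0.667, with 0.333 the smallest p this design allows). Without LXRA 2 h replicate 2 this difference was -0.338 points.

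A reproducible LXRA site at both times was present at 1295 members (51.5%, background 67.4%). An LXRA site at 48 h with no LXRA peak of either replicate at 2 h was found at 170 members (6.75%, background 4.72%). The reverse, a site at 2 h and no peak at 48 h, was found at 29 members (1.15%, background 0.694%). Most late LXRB sites thus had LXRA peaks at 2 h, when LXRB had no reproducible site there, although the LXRA lists were longer, at 18436 to 30953 peaks, and came from a transgene.

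PPARG peaks overlapped fewer members on average, and both libraries at 48 h lay below both at 2 h. After 2 h of rosiglitazone, PPARG peaks overlapped 59.6% and 42.6% of the members in replicates 1 and 2, against a background of 74.1% and 61.2%. After 48 h they overlapped 40.8% and 20.3%, against 64.7% and 39.9%. The mean was 51.1% at 2 h and 30.5% at 48 h, a difference of -20.6 points that no pair of libraries contradicted (exact permutation p = 0.333, the smallest possible). The difference over all LXRB 48 h sites was -15.4 points. The PPARG lists themselves held 24039 and 15804 peaks at 2 h and 15378 and 8933 at 48 h.

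A reproducible PPARG site at both times was present at 488 members (19.4%, background 38.9%). A PPARG site at 2 h with no PPARG peak at 48 h was found at 211 members (8.38%, background 5.13%), and the reverse at 1 member (0.0397%, background 0.119%). At the 484 members with a PPARG peak in all 4 libraries, the median score was 1010.0 and 613 in the 2 h replicates and 571 and 276 in the 48 h replicates. Each 48 h median was below both 2 h medians.

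**Figure D2:**
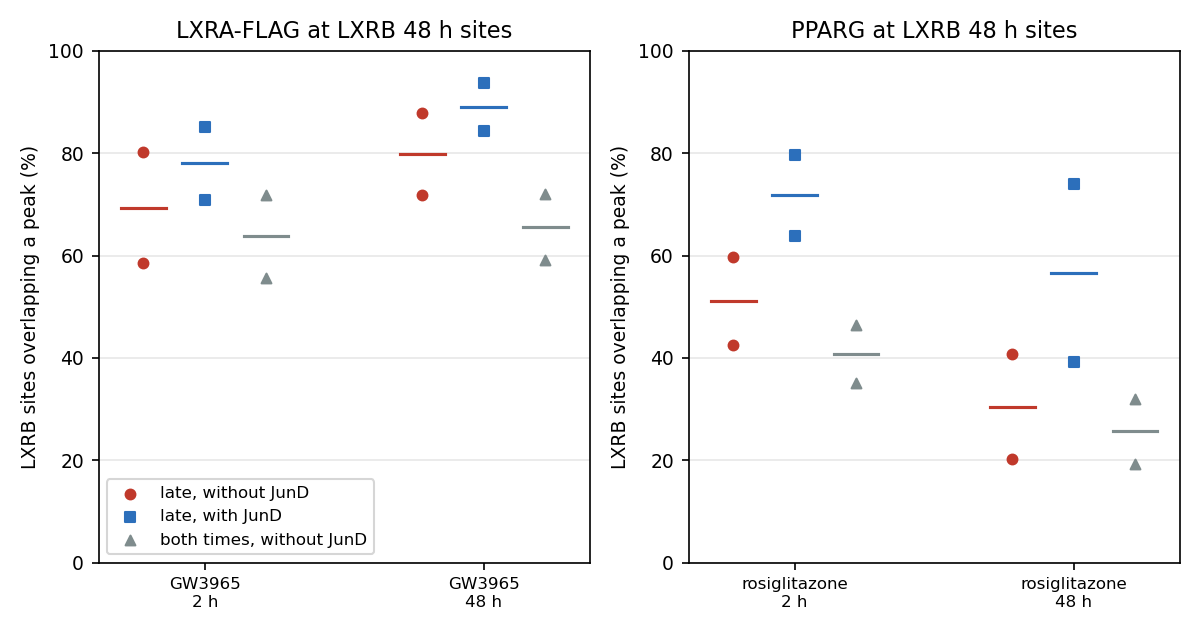
Percent of LXRB 48 h sites that overlap an LXRA-FLAG peak (left) or a PPARG peak (right), by drug time. Each point is 1 library and each dash the mean of 2. The late sites without JunD lie below the late sites with JunD and above the sites of both times without JunD in each of the 8 libraries.

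Compared with late sites with JunD, the members had fewer peaks of both receptors in every library. LXRA peaks overlapped 85.2% and 70.9% of the late sites with JunD at 2 h and 84.3% and 93.6% at 48 h, which gave a difference of -8.90 ± 4.11 points at the members (SD over 4 libraries, range -12.5 to -4.99). PPARG peaks overlapped 79.7% and 63.8% of them at 2 h and 74.0% and 39.2% at 48 h, and the mean difference was -23.4 ± 6.67 points. With 4 libraries the design cannot take a two-sided exact sign-flip permutation test below p = 0.125, and p was 0.125 for both, also after Benjamini-Hochberg adjustment over the 8 comparisons between site classes.

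Compared with sites of both times without JunD, the members had more peaks of both receptors in each of the 4 libraries. LXRA peaks overlapped 71.9%, 55.6%, 59.1% and 72.0% of those sites, and the members were 9.95 ± 5.62 points higher. PPARG peaks overlapped 46.4%, 35.2%, 32.0% and 19.4%, and the members were 7.56 ± 5.09 points higher, with adjusted p = 0.125 in both exact tests. The sign of these differences followed the LXRB score. Within the highest tertile of scores the members were 27.8 points higher for LXRA and 30.9 points higher for PPARG, while in the lowest tertile they were -11.2 and -7.43 points apart. Both differences also turned negative without LXRB 48 h replicate 1 (-7.84 and -5.35 points) and without LXRB 2 h replicate 2 (-1.17 and -3.18 points).

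Joining the reproducible LXRA 48 h and PPARG 2 h sites gave 4 classes of members. Both kinds of site were present at 896 members (35.6%, background 56.1%), and an LXRA 48 h site without a PPARG 2 h site at 899 (35.7%, background 24.7%). A PPARG 2 h site without an LXRA 48 h site was present at 124 members (4.93%, background 3.38%), and 598 (23.8%, background 15.8%) had no such site of either receptor. The classes do not describe the lack of a receptor, since a peak in 1 replicate or at the other time did not count. Of the 598 members with no such site, 55.0% overlapped an LXRA 48 h peak in replicate 2, 52.3% an LXRA 2 h peak in replicate 1 and 22.1% a PPARG 2 h peak in replicate 1. Of the 124 members in the PPARG class, 72.6% overlapped an LXRA 48 h peak in replicate 2. Only 153 members (6.08%, background 5.34%) had no peak of LXRA or PPARG in any of the 8 libraries. Members with both sites had the highest median lower LXRB score of the 4 classes, 144, and those with no such site the lowest, 121. The latter were the widest, with a median of 1032 bp.

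Members with both sites and members with the LXRA 48 h site only lay farthest apart in H3K27ac under rosiglitazone. At members with both sites, H3K27ac peaks overlapped 62.9% and 75.3% in DMSO, 80.2% and 71.7% after 48 h of GW3965 and 82.7% and 79.2% after 48 h of rosiglitazone. At members with the LXRA site only the values were 62.4% and 72.1% in DMSO, 79.1% and 68.7% after 48 h of GW3965 and 68.3% and 66.3% after 48 h of rosiglitazone. At 24 h of GW3965 the values were 78.0% and 64.7% with both sites and 72.7% and 62.4% with the LXRA site only. The libraries of the 2 classes overlapped in DMSO and at both times of GW3965, and did not overlap at 24 or 48 h of rosiglitazone. Members with no LXRA 48 h and no PPARG 2 h site were the most often acetylated of the 4 classes in DMSO, at 74.2% and 80.3%, and stood at 74.6% and 73.9% after 48 h of rosiglitazone.

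RNAP2 was more frequent at members with both sites in DMSO as well as under rosiglitazone. It overlapped 90.7% and 89.6% of them in DMSO and 84.9% and 87.5% after 48 h of rosiglitazone. For members with the LXRA site only these values were 80.3% and 81.5% in DMSO and 71.5% and 75.2% after 48 h of rosiglitazone. The classes were formed after values had been seen and received no test.

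**Figure D3:**
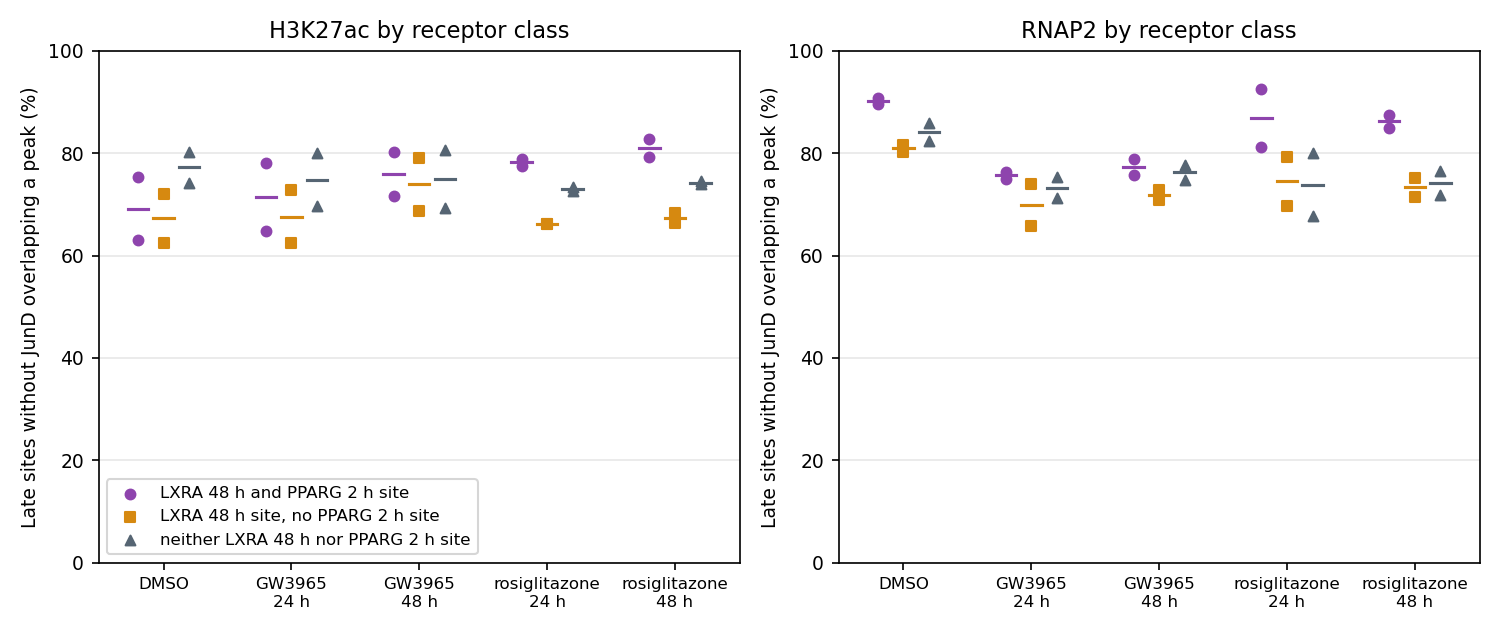
Percent of late LXRB sites without JunD that overlap an H3K27ac peak (left) or an RNAP2 peak (right), by condition and receptor class. Each point is 1 library and each dash the mean of 2. With rosiglitazone, H3K27ac at members with both an LXRA 48 h and a PPARG 2 h site (77.6% to 82.7%) lies above that at members with the LXRA site only (66.1% to 68.3%), while in DMSO the 2 classes overlap.

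Most late LXRB sites without JunD were acetylated in cells given DMSO alone, at shares close to the background. In DMSO, H3K27ac peaks overlapped 65.2% of them in replicate 1 and 75.0% in replicate 2, with Wilson 95% intervals of 63.3% to 67.0% and 73.2% to 76.6% that cover counting error only. The background over all LXRB 48 h sites was 65.1% and 73.5%. After GW3965 the members' values were 76.2% and 64.9% at 24 h (background 75.0% and 66.8%) and 79.5% and 69.4% at 48 h (background 76.5% and 73.8%). After rosiglitazone they were 72.6% and 72.1% at 24 h (background 77.7% and 75.9%) and 75.1% and 73.1% at 48 h (background 79.9% and 76.8%). Replicates of DMSO and of GW3965 lay about 10 points apart, and the members were below the background in all 4 rosiglitazone libraries.

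No condition separated from DMSO in H3K27ac frequency. The mean difference from DMSO was 0.477 points for GW3965 at 24 h and 4.41 points for GW3965 at 48 h, and 2.28 and 3.99 points for rosiglitazone at the same times. The replicates overlapped in all 4 comparisons, with exact permutation p = 0.667 to 1 and adjusted p = 0.833 to 1 over 10 comparisons of conditions. The corresponding differences over all LXRB 48 h sites were 1.64 and 5.90 points for GW3965 and 7.50 and 9.04 points for rosiglitazone. Without H3K27ac DMSO replicate 1, the shortest H3K27ac list with 23015 peaks, all 4 differences at the members were negative (-4.41, -0.477, -2.60 and -0.894 points). Without replicate 1 of the treated group, the GW3965 differences were -5.16 points at 24 h and -0.636 points at 48 h.

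**Figure D4:**
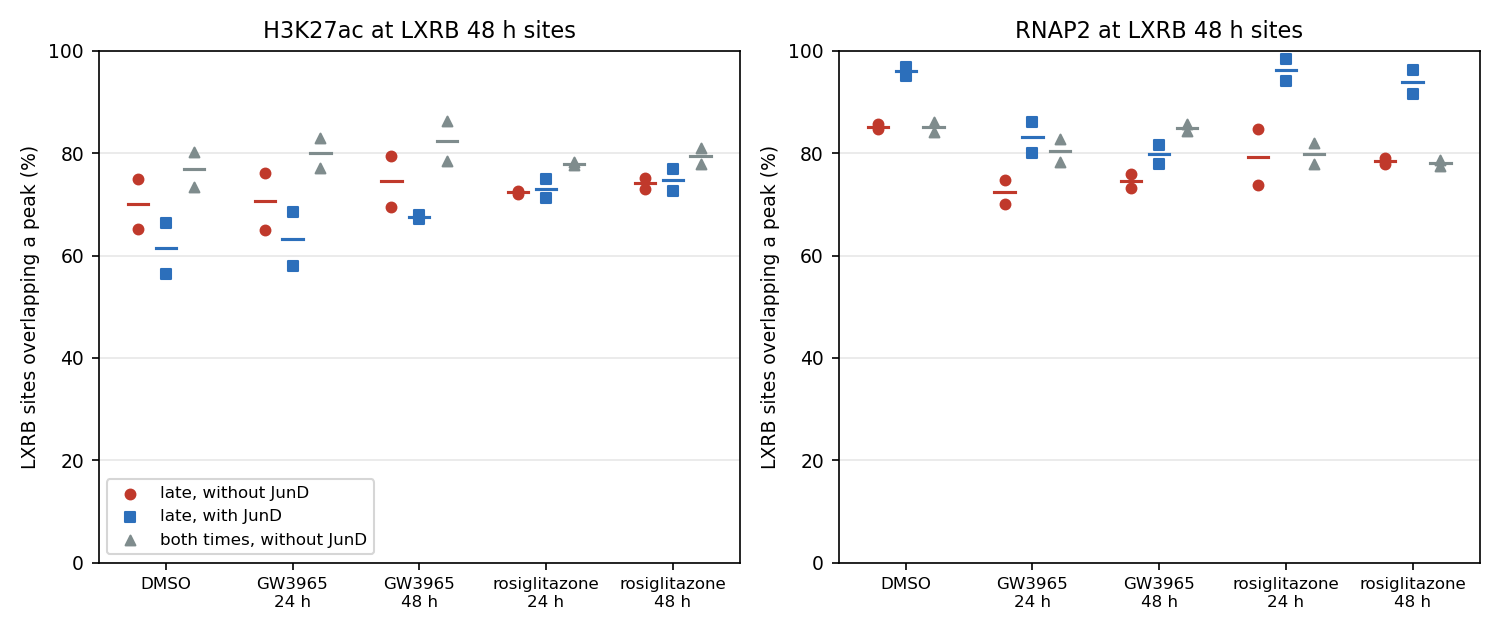
Percent of LXRB 48 h sites that overlap an H3K27ac peak (left) or an RNAP2 peak (right), by condition, for late sites without JunD, late sites with JunD and sites of both times without JunD. Each point is 1 library and each dash the mean of 2. H3K27ac at the late sites without JunD lies between the other classes in DMSO and GW3965, and RNAP2 at them lies below that at late sites with JunD in every library.

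H3K27ac was higher at the members than at late sites with JunD in 8 of 10 libraries. Late sites with JunD had values of 56.4% and 66.4% in DMSO, 68.5% and 57.9% at 24 h of GW3965 and 67.9% and 67.2% at 48 h. In these 6 libraries the members were 2.29 to 11.6 points higher. With rosiglitazone the late sites with JunD had 75.0% and 71.2% at 24 h and 77.0% and 72.5% at 48 h, and the members differed by -2.33 to 0.901 points. The mean difference over 10 libraries was 4.31 ± 4.97 points and did not pass (exact sign-flip permutation test, p = 0.0352, adjusted p = 0.0938 over 8 comparisons). The libraries share the same sites and, by condition, an input, so this p measures only the spread between libraries. The same holds for the other tests between site classes.

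This comparison turned on the choice of sites. Its adjusted p was 0.0273 without LXRB 48 h replicate 1 (5.45 points), 0.0156 without LXRB 2 h replicate 2 (6.89 points) and 0.0208 without JunD replicate 1 (6.23 points), whereas without JunD replicate 2 the difference was 0.400 points. It was 5.63 points within the lowest tertile and 7.17 points within the middle tertile of LXRB scores, with adjusted p = 0.0260 and 0.0312 in the same exact test, and 0.0463 points within the highest tertile.

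H3K27ac was lower at the members than at sites of both times without JunD in 10 of 10 libraries. Those sites had 73.5% and 80.2% in DMSO, 83.0% and 77.1% at 24 h and 86.4% and 78.6% at 48 h of GW3965, and 77.6% to 81.0% with rosiglitazone. The difference was -7.04 ± 2.28 points (range -12.2 to -4.88, exact sign-flip permutation p = 0.00195, adjusted p = 0.00781). Within the middle tertile of LXRB scores, where 891 members met 231 sites of both times, it was 0.984 points. The 10 libraries were 5 conditions of 2 replicates and shared these sites, so p measures only the spread between libraries.

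RNAP2 peaks were present at most members and were most frequent in DMSO. They overlapped 84.7% and 85.7% of the members in DMSO, below the background of 92.9% and 92.7%. After GW3965 they overlapped 74.8% and 70.1% at 24 h (background 83.5% and 84.1%) and 75.9% and 73.1% at 48 h (background 84.2% and 82.0%). After rosiglitazone they overlapped 84.7% and 73.8% at 24 h (background 93.2% and 87.9%) and 77.9% and 79.0% at 48 h (background 87.7% and 90.4%). Each of the 8 treated libraries was below both DMSO libraries. The RNAP2 lists held 30638 and 35010 peaks in DMSO. They held 27260 and 27249 at 24 h of GW3965, the shortest RNAP2 lists, and 32831 and 28897 at 48 h. With rosiglitazone they held 35934 and 30926 at 24 h and 34742 and 29289 at 48 h.

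Relative to DMSO, RNAP2 frequency differed by -12.7 and -10.7 points at 24 and 48 h of GW3965, and by -5.96 and -6.75 points at 24 and 48 h of rosiglitazone. Each of these 4 comparisons gave p = 0.333, the smallest that an exact permutation test of 2 against 2 allows (adjusted p = 0.667). Over all LXRB 48 h sites the corresponding differences were -9.00, -9.69, -2.22 and -3.74 points, so differences of the same sign were not particular to the members. Without RNAP2 rosiglitazone 24 h replicate 2, the difference at 24 h of rosiglitazone was -0.536 points.

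Where RNAP2 peaks were present throughout, their scores were below DMSO at 24 h of GW3965, as the frequency was, but not in the other conditions. At the 1198 members with an RNAP2 peak in all 10 libraries, the median score was 473 and 673 in DMSO and 382 and 403 after 24 h of GW3965. It was 705 and 544 after 48 h of GW3965, which overlaps the range of DMSO. The median RNAP2 peak there was 1793 and 1610 bp wide in DMSO and 1352 and 1388 bp wide after 48 h of GW3965.

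RNAP2 was less frequent at the members than at late sites with JunD in 10 of 10 libraries. Late sites with JunD had 96.9% and 95.1% in DMSO, 77.9% to 86.1% with GW3965 and 91.6% to 98.4% with rosiglitazone. The difference was -11.8 ± 5.38 points (range -20.3 to -4.84, exact sign-flip permutation p = 0.00195, adjusted p = 0.00781). The difference kept its sign and passed within each tertile of LXRB scores, at -10.4, -8.70 and -12.2 points (exact test, adjusted p = 0.0234, 0.0156 and 0.00781). Here too the 10 libraries were 5 conditions of 2 replicates over the same sites, and p measures only the spread between libraries.

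Against sites of both times without JunD, RNAP2 at the members differed by -3.74 ± 5.10 points (exact sign-flip permutation p = 0.0586, adjusted p = 0.117). Those sites had 84.1% and 86.2% in DMSO, 78.3% to 85.6% with GW3965 and 77.5% to 81.9% with rosiglitazone. The members were lower in all 4 GW3965 libraries and higher in 3 of 4 rosiglitazone libraries and 1 of 2 DMSO libraries. The difference passed without LXRB 48 h replicate 1 (-8.47 points), LXRB 48 h replicate 2 (-9.84 points) or LXRB 2 h replicate 2 (-10.0 points), with adjusted p = 0.00521 in each exact test. Within the middle tertile of LXRB scores it was 4.51 points in the other direction (exact test, adjusted p = 0.0417).

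Acetylation and RNAP2 were largely found at the same members, as was the case over all LXRB 48 h sites. In DMSO, 1540 members (61.2%, background 62.4%) had reproducible sites of both, 507 (20.1%, background 28.4%) of RNAP2 alone and 101 (4.01%, background 1.78%) of H3K27ac alone, while 369 (14.7%, background 7.43%) had neither. After 48 h of GW3965, 1447 members (57.5%, background 62.7%) had both, 308 (12.2%, background 16.6%) RNAP2 alone, 271 (10.8%, background 7.12%) H3K27ac alone and 491 (19.5%, background 13.6%) neither. Members with H3K27ac alone were thus more numerous under GW3965 and members with RNAP2 alone fewer. Both shifts were also present in the background, so they were not particular to the members.

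Across all 5 conditions, 1279 members (50.8%, background 52.7%) had a reproducible H3K27ac site in each, and 291 (11.6%, background 10.4%) had no H3K27ac peak in any of the 10 libraries. RNAP2 sites were present in each condition at 1208 members (48.0%, background 65.9%), and 105 members (4.17%, background 1.86%) had no RNAP2 peak in any library. Of the 961 sites of both times without JunD, 51 (5.31%) had none, and of the 3310 late sites with JunD, 12 (0.363%).

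A member was counted as gained when it had a reproducible site under the drug and no peak of either DMSO replicate, and as lost in the reverse case. For H3K27ac, 50 members were gained (1.99%, background 1.95%) and 19 lost (0.755%, background 0.640%) at 24 h of GW3965, and 121 gained (4.81%, background 4.53%) and 19 lost (0.755%, background 0.618%) at 48 h. At 24 h of rosiglitazone 80 were gained (3.18%, background 6.11%) and 55 lost (2.19%, background 1.45%), and at 48 h 92 were gained (3.66%, background 6.28%) and 38 lost (1.51%, background 0.890%). Gains with GW3965 stood near the background, and gains with rosiglitazone below it. Late sites with JunD had 149 gains (4.50%) at 48 h of GW3965 and 290 (8.76%) at 48 h of rosiglitazone, and sites of both times without JunD had 50 (5.20%) and 29 (3.02%).

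For RNAP2, losses outnumbered gains at the members under both drugs. At 24 h of GW3965, 17 were gained (0.675%, background 0.445%) and 164 lost (6.52%, background 4.30%). At 48 h, 40 were gained (1.59%, background 0.803%) and 213 lost (8.46%, background 7.04%). At 24 h of rosiglitazone, 38 were gained (1.51%, background 0.976%) and 70 lost (2.78%, background 1.04%), and at 48 h 30 were gained (1.19%, background 0.705%) and 92 lost (3.66%, background 1.77%). Of the late sites with JunD, 2 (0.0604%) were gained and 355 (10.7%) lost at 48 h of GW3965. Of the sites of both times without JunD, 30 (3.12%) were gained and 29 (3.02%) lost, so gains were more frequent there than at the members and losses less frequent. These counts rest on 2 replicates a condition and shared DMSO libraries, and they received no test.

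**Figure D5:**
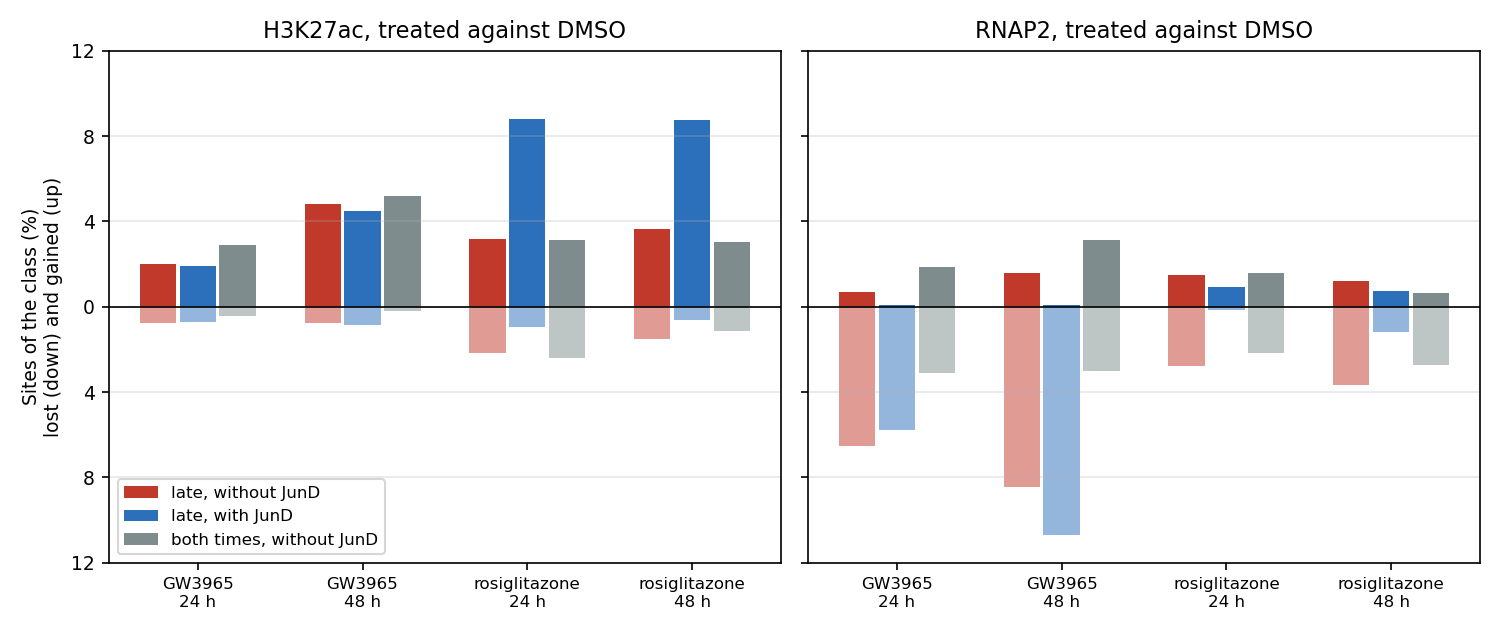
Percent of each class of sites gained (upward, full color) or lost (downward, pale) against DMSO for H3K27ac (left) and RNAP2 (right), by drug and time. H3K27ac gains with rosiglitazone reach 8.79% of late sites with JunD and 3.66% of late sites without JunD, and RNAP2 gains at 48 h of GW3965 are 1.59% of late sites without JunD, 0.0604% of late sites with JunD and 3.12% of sites of both times without JunD.

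PPARG sites differed between the gained members of either drug, and LXRA sites hardly did. Of the 121 members that gained H3K27ac at 48 h of GW3965, 104 (86.0%) had an LXRA 48 h site and 55 (45.5%) a PPARG 2 h site. Of the 92 that gained it at 48 h of rosiglitazone, 79 (85.9%) had an LXRA 48 h site and 73 (79.3%) a PPARG 2 h site. Among all members these shares were 71.3% and 40.5%. Over all LXRB 48 h sites, LXRA 48 h peaks overlapped 81.0% and 90.9% in replicates 1 and 2. PPARG 2 h peaks overlapped 74.1% and 61.2% of them. RNAP2 gains had the same order of drugs, with a PPARG 2 h site at 10 of 40 members (25.0%) for GW3965 and at 21 of 30 (70.0%) for rosiglitazone. The GW3965 share was here below that of all members, unlike for H3K27ac. LXRA 48 h sites were present at 92.5% and 93.3% of these gained members. Of the 213 members that lost RNAP2 at 48 h of GW3965, 160 (75.1%) had an LXRA 48 h site, and their median lower LXRB score was 123.

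The member with the highest lower LXRB score was chr11:76480416-76482638, with scores of 610.0 and 847 in replicates 1 and 2 and an LXRB peak of 120.0 in replicate 2 at 2 h. It had LXRA peaks of 1736 and 903 at 2 h and 2501 and 3100 at 48 h, and PPARG peaks of 894 and 457 at 2 h and 797 and 332 at 48 h. Its H3K27ac scores were 1338 and 3233 in DMSO and 3100 and 3149 after 48 h of GW3965. RNAP2 scores there were 474 and 558 in DMSO and 1344 and 1340 after 48 h of GW3965, so both libraries at 48 h of GW3965 exceeded both DMSO libraries. The next by lower score was chr20:34203401-34208142, with LXRB scores of 561 and 851, a span of 4742 bp and no PPARG peak at 48 h.

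The remaining 6 of the 8 strongest members had lower scores from 477 down to 447. They were chr11:68065137-68066645, chr16:1818861-1821905, chr17:80033496-80036211, chr19:6752035-6754083, chr11:13353934-13354618 and chr2:201167411-201168367. Of the 8, 6 had an LXRB peak in replicate 1 at 2 h, with scores of 120 to 319, and chr19:6752035-6754083 had none in either replicate. The highest PPARG scores among them were at chr11:68065137-68066645, with 2784 and 1318 at 2 h and 991 and 623 at 48 h. At chr16:1818861-1821905, with LXRB scores of 476 and 1279, the only peak of another receptor was an LXRA peak of 141 in replicate 1 at 2 h.

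The strongest member with no H3K27ac peak in any library was chr17:80033496-80036211, with LXRB scores of 467 and 1673. RNAP2 there scored 289 and 1060.5 in DMSO, reached 3100 in all 4 GW3965 libraries and lay between 501 and 1865 in the 4 rosiglitazone libraries. An LXRA peak of 124 in replicate 1 at 2 h was the only other receptor peak. The other members of this kind with the highest scores were chr17:33477898-33478693, chr12:70842956-70843726 and chr7:151441946-151442949, with lower LXRB scores of 399, 355 and 331. The first of these had no RNAP2 peak in any library and no LXRA peak, and PPARG peaks of 350 and 156 in replicate 2 at 2 h and at 48 h.

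Of the 4 members with the highest LXRB scores among those with an H3K27ac site at 48 h of GW3965 and no H3K27ac peak in DMSO, chr9:107755317-107756557 had the highest H3K27ac scores. Its H3K27ac scores were 3217 and 1402 at 24 h and 2758 and 1037 at 48 h of GW3965, with no peak in DMSO or rosiglitazone. RNAP2 peaks were likewise restricted to GW3965, at 213 and 269 after 24 h and 656 and 417 after 48 h. LXRA scored 3100 and 2495 at 2 h and 3100 in both 48 h replicates, no PPARG peak was present, and LXRB scored 425 and 614 at 48 h. This site therefore had LXRA without a reproducible LXRB site at 2 h.

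A like pattern was present at chr17:27965984-27967057, which had LXRB scores of 435 and 471 and LXRA scores of 3100 in all 4 libraries. H3K27ac scored 194 and 261 at 48 h of GW3965, and RNAP2 scored 406 and 366 at 24 h and 426 and 374 at 48 h, with no RNAP2 peak in DMSO. In rosiglitazone it had an RNAP2 peak of 185 and a PPARG peak of 154 at 48 h, each in 1 replicate. The other 2 of the 4 highest in this class were chr2:201167411-201168367 and chr14:21081191-21082247. Both also had H3K27ac peaks with rosiglitazone, so their acetylation was not restricted to GW3965.

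The 4 strongest members with a PPARG site at both times were chr11:76480416-76482638, chr11:68065137-68066645, chr11:13353934-13354618 and chr19:33783358-33785030. The last had PPARG scores of 1379 and 975 at 2 h and 722 and 185 at 48 h, and H3K27ac scores of 1483 and 3100 in DMSO. At chr11:13353934-13354618, a narrow site of 685 bp, LXRA scored 2027 and 1246 at 2 h and 3100 in both replicates at 48 h. RNAP2 there scored 151 and 115 in DMSO and 545 and 592 at 24 h and 267 and 220.0 at 48 h of GW3965. The widest members were chr8:119119311-119125684, with 6374 bp, and chr17:36101707-36107177, with 5471 bp, whose lower LXRB scores were 298 and 145.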

How the data were processed

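ChIP-seq peaks of HT29 cells were used as the authors deposited them, on hg19. Per the labels, reads were aligned with Bowtie and peaks called with MACS, each replicate separately, and the deposited score is -10 times log10 of the p-value. RNA-seq was deposited by the authors as raw counts per gene. The labels name TopHat and Cufflinks, and the counting program is not given in the sources used here. CPM was computed here from the total counts of each library, for levels only. The totals ran from 21044798 to 51332656 over all 32 RNA-seq libraries, of which 24 are shown. The rest were given T0901317, another LXR agonist, and are not shown.

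Sites, overlaps (at least 1 bp) and shares were computed with Python 3.11.15, pandas 2.3.3 and scipy 1.17.1, and the member count was checked with bedtools 2.31.1. The overlap code and tests were tested on simulated data. Tests were exact permutation tests, two-sided, with Benjamini-Hochberg adjustment over 8 comparisons between site classes and 10 between conditions. Members, comparisons and named regions were chosen with earlier results of these data known. Named regions were the 8 members with the highest lower LXRB score, the 4 highest without H3K27ac, the 4 highest with an H3K27ac site at 48 h of GW3965 and no H3K27ac peak in DMSO, the 4 highest with PPARG at both times, the 2 widest, and the 3 on either side of the JunD rule. No hg19 annotation was used here, so no site was assigned to a gene.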

Additional observations from a re-analysis of the deposited data

Results flagged for a closer look

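The difference between late LXRB sites without JunD and other LXRB sites was not the same in GW3965 and rosiglitazone libraries. This was tested after the values had been seen, with exact two-sided permutation tests of 4 against 4 libraries, adjusted over 4 comparisons, in which 0.0286 is the smallest p possible. For H3K27ac against late sites with JunD, the members were 7.13 points higher with GW3965 (2.29 to 11.6) and -0.698 points apart with rosiglitazone (-2.33 to 0.901), a difference of 7.83 points (exact permutation p = 0.0286, adjusted p = 0.0381). For H3K27ac against sites of both times without JunD, the values were -8.74 points with GW3965 and -5.47 points with rosiglitazone, a difference of -3.27 points (exact permutation p = 0.0286, adjusted p = 0.0381). For RNAP2 against sites of both times without JunD they were -9.25 and -0.136 points, a difference of -9.11 points (exact permutation p = 0.0286, adjusted p = 0.0381). The corresponding RNAP2 difference against late sites with JunD, 8.29 points, did not pass (exact permutation p = 0.0857, adjusted p = 0.0857). Libraries of a drug include 2 time points, and each condition had its own input library. DMSO libraries were not part of these tests. In DMSO, H3K27ac at the members was 8.76 and 8.60 points above late sites with JunD. Against sites of both times it was -8.27 and -5.26 points apart, and RNAP2 0.665 and -0.503 points. H3K27ac at late sites with JunD was 11.7 and 13.35 points above DMSO at 24 and 48 h of rosiglitazone. At the members it was 2.28 and 3.99 points above.

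In RNA-seq, JUND was at 89.8 CPM in replicate 1 of GW3965 at 24 h, and at 133, 135 and 137 CPM in the other replicates. It was the only one of 24 gene and group pairs with a library so far from the rest, and chance sets apart about 1 such group in 20.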

How the results depend on the processing

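Of 386 values under alternatives, 348 were counted as unchanged, and the causes of the others were not tested. For a comparison, unchanged meant the same direction and the same side of the threshold. Comparisons between conditions and those of LXRA and PPARG had too few libraries to reach the threshold, so only their direction could change. The 386 values include 11 counts of members, which have no direction or threshold. These were judged by their ratio to the main count, and 9 were counted as unchanged. Also included are 10 values with the replicate block and 3 with crossed replicate numbers. Those equal the main values by construction, so they could not change and do not bear on stability. The members numbered 345 with LXRB 48 h scores of at least 200 in both replicates, and 1924 to 6423 when 1 replicate of LXRB or JunD was left out. When no LXRB 2 h peak of either replicate was allowed, H3K27ac against late sites with JunD passed at 7.06 points, RNAP2 against sites of both times without JunD passed at -8.83 points, and LXRA (-1.78 points), PPARG (-3.49 points) and H3K27ac at 24 h of GW3965 against DMSO (-0.382 points) changed sign. RNAP2 against sites of both times was 0.565 points with LXRB scores of at least 200 and -8.13 points with RNAP2 scores of at least 200. Within the lowest LXRB tertile, H3K27ac against late sites with JunD was 5.63 points, and LXRA and PPARG against sites of both times were -11.2 and -7.43 points. Within the middle tertile, H3K27ac was 7.17 points against late sites with JunD and 0.984 points against sites of both times, and RNAP2 was 4.51 points against the latter. Chosen after seeing the data, the DMSO and GW3965 libraries alone gave -8.88 points for RNAP2 against late sites with JunD and -8.08 points for H3K27ac against sites of both times. They gave 7.65 points for H3K27ac against late sites with JunD. The rosiglitazone libraries alone gave -16.2 and -5.47 points, and -0.698 points for H3K27ac against late sites with JunD. No comparison in either subset passed after adjustment, and the rosiglitazone libraries alone are too few to pass.

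Leaving out 1 library at a time gave 0.400 to 6.89 points for H3K27ac against late sites with JunD, -10.0 to -2.21 points for RNAP2, -7.84 to 12.3 points for LXRA and -5.35 to 9.77 points for PPARG, the last 3 against sites of both times. Against DMSO, H3K27ac gave -5.16 to 6.12 and -0.636 to 9.46 points at 24 and 48 h of GW3965, and -2.60 to 7.17 and -0.894 to 8.88 points for rosiglitazone. LXRA at 48 h against 2 h gave -0.338 to 21.3 points. With a lone library left in a group there was no test.

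The replicate numbers are not said to pair libraries. The correlation of replicate 1 minus replicate 2 over 9218 sites between treated and control groups was -0.290 to 0.125. With the replicate block the 10 differences between conditions kept their values (for example -12.7 points for RNAP2 at 24 h of GW3965) and no call changed, since 2 pairs cannot go below p = 0.5 in an exact test. Crossing the numbers for H3K27ac under GW3965 and for LXRA, chosen after seeing the data, made 0 calls. The planned test of RNA from genes near the members was not run, since no gene annotation on hg19 was used here. Depth was unknown for the peak lists.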
